A study of Mus musculus with 6 samples.

Results

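The mitochondrial chromosome of mouse splenic invariant natural killer T (iNKT) cells is described here gene by gene, in 6 RNA libraries. Its genes were taken as every gene in the deposited table whose name starts with mt-. There are 37 of them among 48709 genes: 13 protein genes, 2 rRNA genes and 22 tRNA genes. They are also the 37 genes that the table places on chromosome MT. iNKT cells are T cells with a semi-invariant receptor for lipids presented on CD1d. They were sorted from spleen, and the labels name 3 samples Gpx4 cKO, for a conditional knockout, and 3 samples WT, for wild type, all in the resting state. Gpx4 encodes glutathione peroxidase 4, which reduces lipid hydroperoxides in membranes. The Cre driver of the knockout, the age of the mice and whether the samples came from separate animals are not given in the labels.

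The libraries carry numbers from 18 to 23 that occur in no label. The number of libraries matched to a genotype was 0 of 6, so no Gpx4 cKO against WT comparison was made, and each library is given by its number. Total exon reads lay between 903524 in library 21 and 10122187 in library 19, with a median of 5419158. Library 23 was the second shallowest, with 1916746. The 8 iNKT and T cell markers were all detected in each library, among them the transcription factor Zbtb16 (245 to 357 CPM, counts scaled to an effective library size of 1000000) and the receptor subunit Cd3e (764 to 924 CPM). Their sum lay between 3978 and 4828 CPM. The 5 myeloid markers summed to 1.21 to 4.34 CPM, with S100a8 at 0 reads throughout, which allows up to 3.62 CPM in library 21.

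The mitochondrial genome is a small circle transcribed from both strands into long precursors. tRNAs lie between most of the protein and rRNA genes, and their excision releases the mature mRNAs and rRNAs. The protein genes all encode subunits of oxidative phosphorylation: of complex I (NADH dehydrogenase), complex III (cytochrome bc1), complex IV (cytochrome c oxidase) and complex V (ATP synthase). The rest of each complex, and all proteins that replicate, transcribe and translate the mitochondrial genome, are encoded in the nucleus. iNKT cells, like other T cells, draw on this respiration at rest and when they proliferate.

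Where tRNAs do not separate neighbours, some genes share bases. All 37 genes had the start, end and strand of the GENCODE M21 annotation of GRCm38, from which the sequences are taken. The pair mt-Atp8 and mt-Atp6, both subunits of ATP synthase, overlaps by 43 bases on the same strand. The pair mt-Nd4l and mt-Nd4, both of complex I, overlaps by 7 bases. Each pair is known to be carried by a single bicistronic mRNA. mt-Nd5 overlaps mt-Nd6 by 14 bases, and mt-Co1 overlaps the tRNA gene mt-Ts1 by 3 bases, in both cases on opposite strands. The last 60 bases of 4 genes with such an overlap are shown 5′ to 3′ beside those of mt-Cytb, which overlaps no gene. Capitals mark the bases that also belong to the next gene on the map. In mt-Atp8 and mt-Nd4l the capitals open with the ATG of the downstream gene.
mt-Atp8 (MT:7910-7969, plus strand): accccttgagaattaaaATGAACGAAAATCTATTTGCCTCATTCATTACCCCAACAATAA
mt-Nd4l (MT:10114-10173, plus strand): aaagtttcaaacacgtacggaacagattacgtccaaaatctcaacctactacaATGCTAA
mt-Nd5 (MT:13506-13565, plus strand): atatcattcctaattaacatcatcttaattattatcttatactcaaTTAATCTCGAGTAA
mt-Co1 (MT:6813-6872, plus strand): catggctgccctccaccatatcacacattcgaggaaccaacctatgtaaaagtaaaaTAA
mt-Cytb (MT:15229-15288, plus strand): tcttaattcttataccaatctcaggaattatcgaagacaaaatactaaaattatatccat

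Messages of the 13 protein genes made up between 3.36% and 4.99% of all exon reads, and their summed level differed 1.70-fold between libraries (interval 1.68 to 1.72, counting error only). The sum was 34945, 32011, 35572, 54378, 35047 and 41964 CPM in libraries 18 to 23. Libraries 18, 20 and 22 lay close together, library 19 below them, and libraries 23 and 21 above. The share of exon reads was 4.99% in library 21 (exact binomial interval 4.94 to 5.03) and 4.15% in library 23 (4.12 to 4.18), against 3.36% to 3.62% in the other libraries. Without library 21 the fold range of the sum was 1.31. These values are relative to the other reads of a library. More mitochondrial RNA per cell, less other RNA and a larger share of cells rich in mitochondrial RNA cannot be told apart in bulk libraries.

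**Figure D1:**
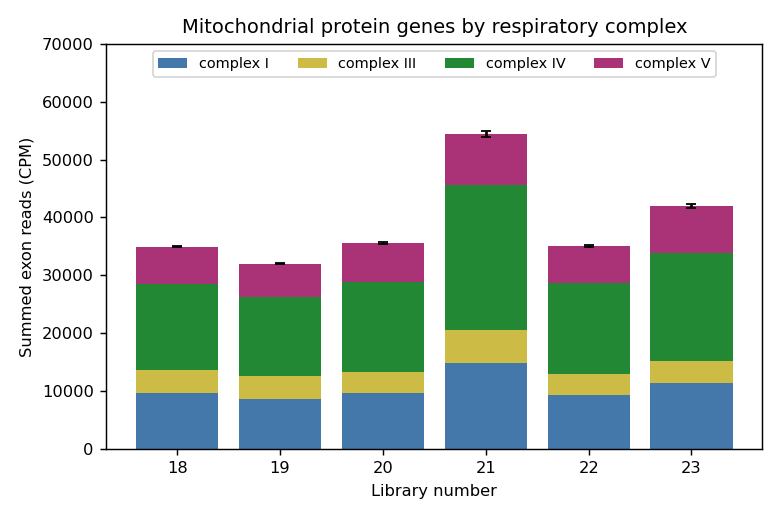
Summed exon reads of the 13 mitochondrial protein genes in CPM (y axis) by library number (x axis), stacked by respiratory complex, with black bars for the 95% Poisson interval of the sum. Library 21 reaches 54378 CPM and library 23 reaches 41964 CPM, while the other libraries lie between 32011 and 35572 CPM.

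Libraries 21 and 23 were also the shallowest libraries and the highest in proliferation genes. The summed level of 10 proliferation genes was 1507 CPM in library 21 and 1898 CPM in library 23, against 901 to 1068 CPM in the others. Mki67, a marker of cycling cells, had 392 CPM in library 21 and 558 CPM in library 23, against 171 to 250 CPM in the others. The order was not the same as for the mitochondrial sum, since library 23 was above library 21 in both. The 6 B cell and plasma cell genes summed to 781, 2229, 4107, 4277, 4859 and 5714 CPM in libraries 18 to 23, mostly from immunoglobulin kappa (Igkc). The 6 erythroid genes, chiefly globins, summed to 4.34, 4.80, 94.2, 62.8, 124 and 289 CPM. In both of these lists library 23 was highest, and library 21 was below library 22. The part of depth, cycling cells and cells of other types in the mitochondrial levels was not tested.

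Every one of the 13 protein genes varied over the libraries beyond counting error in a chi-square test of its exon reads against the effective library sizes with Benjamini-Hochberg adjustment at a threshold of 0.05. The highest adjusted p among them was 5.87e-13, for mt-Nd3. Among all 9042 genes tested, 6473 or 71.6% passed the same test, so passing it does not set the mitochondrial genes apart. A range of at least 1.5-fold was reached in addition by 12 of the 13, against 44.8% of all tested genes. The exception was mt-Atp8, at 1.46-fold. This count rests on library 21: without it, 1 of 13 had such a range, mt-Nd6 at 1.61-fold, against 34.6% of all tested genes. The median fold range was 1.72 for the mitochondrial protein genes and 1.57 for all tested genes, and without library 21 it was 1.35 and 1.42.

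**Figure D2:**
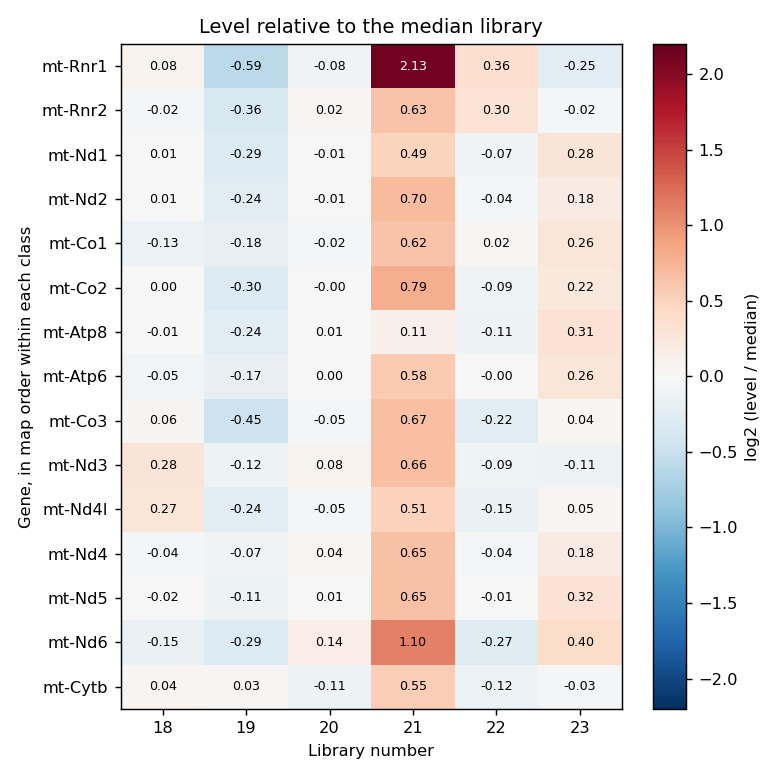
Log2 of each level over the gene's median across the 6 libraries, by library number (x axis) and gene (y axis). Levels are gene reads per 1000000 of effective library size for the 2 rRNA genes and exon CPM for the 13 protein genes. The column of library 21 is positive for all 15 genes, from 0.11 for mt-Atp8 to 2.13 for mt-Rnr1, and that of library 19 is negative for all but mt-Cytb.

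Complex IV genes took the largest share of the protein gene reads, with a median of 44.3% (42.5% to 46.0%). mt-Co1, the catalytic subunit of cytochrome c oxidase that holds the haem-copper centre, had the most reads of any mitochondrial gene, 10898, 10557, 11807, 18444, 12127 and 14318 CPM in libraries 18 to 23. It alone held 31.2% to 34.6% of the reads of the 13 genes. mt-Co2, the subunit that accepts electrons from cytochrome c, had 2492, 2012, 2476, 4298, 2334 and 2902 CPM, a 2.14-fold range. mt-Co3, the other large core subunit, had 1486, 1047, 1383, 2269, 1222 and 1473 CPM, a 2.17-fold range. For these 3 genes library 21 was highest and library 19 lowest. mt-Co2 and mt-Co3 had wider ranges than every other protein gene except mt-Nd6, and without library 21 their ranges were 1.44 and 1.42.

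Complex I genes are 7 in number and their joint share hardly moved. It was 27.5%, 27.0%, 27.1%, 27.3%, 26.7% and 27.2% in libraries 18 to 23, a 1.03-fold range, while their summed level differed 1.72-fold. mt-Nd5, a proton-pumping subunit, had the most reads of the complex at 4114, 3850, 4191, 6520, 4134 and 5213 CPM. mt-Nd4, a related pumping subunit, followed with a lowest value of 1951, a median of 2049 and a highest value of 3218 CPM. The membrane subunits mt-Nd2 and mt-Nd1 had medians of 1464 and 1306 CPM, with ranges of 1240 to 2370 and 1067 to 1838 CPM. In all 4 of these genes the highest level was in library 21.

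The 3 genes with the fewest reads were also of complex I. mt-Nd4l had 538, 378, 431, 632, 402 and 459 CPM in libraries 18 to 23. mt-Nd3 had 124, 94.1, 108, 162, 96.2 and 94.9 CPM. Both were second highest in library 18, unlike mt-Nd1, mt-Nd2, mt-Nd4 and mt-Nd5, which were second highest in library 23. mt-Nd6, the only protein gene on the minus strand, had 55.1, 49.995, 67.5, 132, 50.8 and 80.7 CPM. Its range of 2.63-fold was the widest of the 13, and its spread beyond counting error, a coefficient of variation of 28.1%, was also the largest. mt-Nd6 rests on 1896 exon reads in all, against 375659 for mt-Co1. Whether reads were counted by strand is not given in the sources used here, so reads of mt-Nd6 and of the opposite strand cannot be told apart.

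mt-Cytb, cytochrome b, is the only complex III gene of this genome, and its share moved most among the complexes. It had 4005, 3993, 3608, 5696, 3588 and 3810 CPM in libraries 18 to 23, which is 11.5%, 12.5%, 10.1%, 10.5%, 10.2% and 9.08% of the protein gene reads. Libraries 18 and 19 had the highest shares and library 23 the lowest. The exact binomial intervals of the highest share, 12.4% to 12.6% in library 19, and of the lowest, 8.88% to 9.28% in library 23, did not overlap. mt-Cytb was the one protein gene whose lowest level was not in library 19 but in library 22. Without library 21 its fold range was 1.12, the narrowest of the 13.

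Complex V genes are mt-Atp6, a channel subunit of ATP synthase, and mt-Atp8, a small membrane subunit. mt-Atp6 had 3811, 3511, 3961, 5913, 3954 and 4743 CPM in libraries 18 to 23, and its share of the protein gene reads stayed between 10.9% and 11.3%. mt-Atp8 had 2644, 2261, 2687, 2887, 2476 and 3304 CPM. It was the one protein gene that was highest in library 23 rather than library 21. Its share was 5.31% in library 21 (5.10 to 5.52) and 7.06% to 7.87% in the other libraries. The 2 genes of this bicistronic message thus differed in how their shares varied, with a 1.48-fold range for mt-Atp8 and 1.04-fold for mt-Atp6. The 1.48-fold range rests on library 21, and without it the levels of mt-Atp8 and mt-Atp6 had ranges of 1.46-fold and 1.35-fold. In library 21 mt-Atp8 also had its largest share of gene reads outside the exon (39.8%, described below). The part of read assignment in this difference was not tested.

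Per kilobase of exon, levels of the 13 genes differed 111-fold between the highest and lowest median. mt-Atp8 came first with a median of 13066 CPM per kb, then mt-Co1 with 7746 and mt-Atp6 with 5811. mt-Co2 (3631), mt-Cytb (3411) and mt-Nd5 (2282) followed, all as medians in CPM per kb. mt-Co3 (1821), mt-Nd4l (1498), mt-Nd4 (1487), mt-Nd2 (1410) and mt-Nd1 (1365) formed a middle group with close medians. mt-Nd3 (294) and mt-Nd6 (118) were far below. Between neighbours in this order, ranges over libraries did not overlap for only 2 steps, mt-Nd1 over mt-Nd3 and mt-Nd3 over mt-Nd6. Within a library the order was steadier. Of the 12 steps, 9 held in 6 of 6 libraries, mt-Co2 over mt-Cytb and mt-Nd2 over mt-Nd1 held in 5, and mt-Nd4l over mt-Nd4 in 1. mt-Nd4l, of 297 bases, and mt-Atp8, of 204 bases, are the shortest of the 13.

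**Figure D3:**
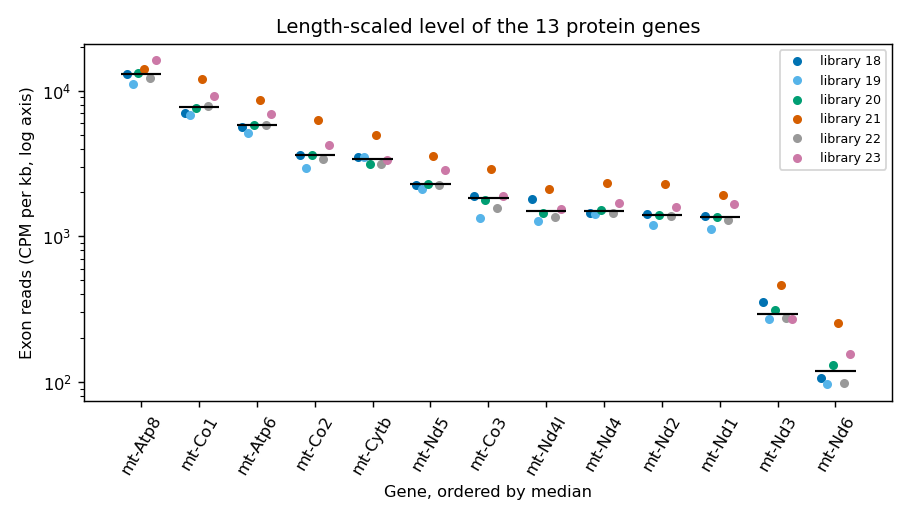
Exon reads in CPM per kilobase of exon (log y axis) of the 13 mitochondrial protein genes, ordered by median (x axis), with 1 point per library and a black line at the median. Medians run from 13066 for mt-Atp8 to 118 for mt-Nd6, and the last 2 genes lie clear of the rest.

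Scaling by length changed the order of the complexes. Complex V had the largest share of the reads per kilobase, with a median of 42.7%, ahead of complex IV at 29.8%, complex I at 19.5% and complex III at 7.75%. Most of the complex V share came from mt-Atp8, of 204 bases, with a median of 13066 CPM per kb against 5811 for mt-Atp6. mt-Atp8 shares 43 of those bases with mt-Atp6. The order by reads put complex IV at 44.3%, complex I at 27.2%, complex V at 18.4% and complex III at 10.4%. mt-Nd5 and mt-Nd6 lie end to end on opposite strands, and mt-Nd5 had 14.1 times (library 21) to 23.2 times (library 22) the level of mt-Nd6 per kilobase.

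Reads that fell on a gene but outside its exon made up the largest shares in mt-Nd4l and mt-Atp8, the upstream genes of the bicistronic pairs. The file headers class such reads as intron reads, yet each of the 13 protein genes is 1 exon as long as the gene itself. How the authors' counting assigned reads that reach past a gene's end is not given in the sources used here. mt-Nd4l had 46.7% to 50.3% of its gene reads outside the exon, and mt-Atp8 had 32.0% to 39.8%. Their downstream partners had less: mt-Atp6 13.7% to 15.8%, and mt-Nd4 4.07% to 5.12%. Joined as pairs, the medians were 23.6% for mt-Atp8 with mt-Atp6 and 16.9% for mt-Nd4l with mt-Nd4, against 3.32% for the other 9 protein genes together. The ranges over libraries of either pair did not overlap with that of the other 9 pooled. These 9 include mt-Co3, mt-Nd1 and mt-Nd2, with same-strand overlaps of 1 or 2 bases. Genes with many reads weigh most in this pool, and the separation did not hold for mt-Nd3 taken alone.

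Among those 9 genes the values differed widely. mt-Nd3, which overlaps no gene, had 15.4% to 23.1% of its reads outside the exon. That range took in the whole range of mt-Nd4l joined with mt-Nd4 (median 16.9%). It also overlapped the range of mt-Atp8 joined with mt-Atp6 (median 23.6%). High shares outside the exon were thus not limited to the bicistronic pairs. mt-Nd6 had 5.36% to 12.1%. mt-Co1 had 4.60% to 6.50%, which overlaps the range of mt-Nd4, and mt-Nd5 had 3.69% to 4.30%. mt-Co3, mt-Co2, mt-Nd2 and mt-Nd1 had at most 1.78% each, with medians of 1.24%, 1.05%, 0.607% and 0.546%. mt-Cytb, whose last 60 bases are shown above without a shared base, was lowest with 0.0411% to 0.166%, or 87 reads in all libraries. The value of mt-Atp8 in library 21, 39.8% (38.3 to 41.4), stood above its 32.0% to 34.5% elsewhere. By all gene reads, mt-Atp8 was still highest in library 23, with 2564 gene reads per 1000000 of effective library size, against 2475 in library 21.

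**Figure D4:**
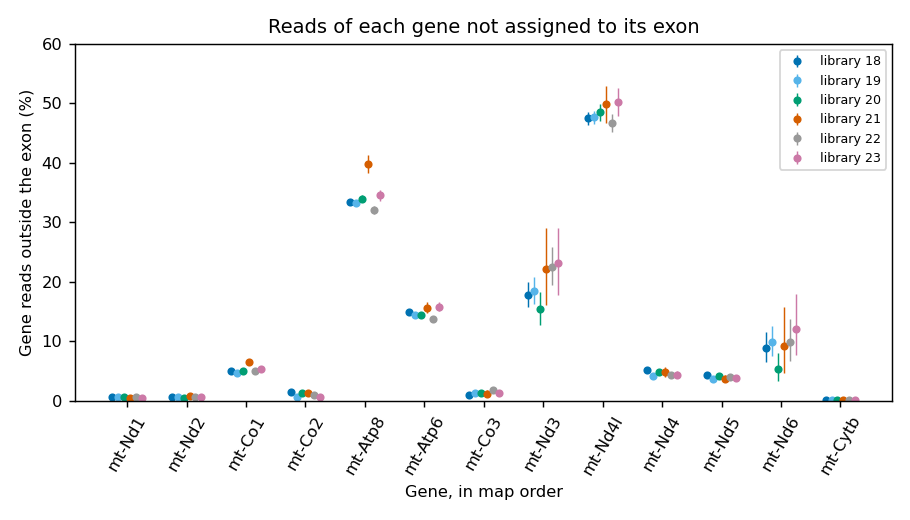
Share of each protein gene's reads that lay outside its exon (y axis, percent) by gene in map order (x axis), with 1 point per library and its 95% exact binomial interval. mt-Nd4l at 46.7% to 50.3% and mt-Atp8 at 32.0% to 39.8% stand above all others, and mt-Cytb is near 0.

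The 2 rRNA genes and 22 tRNA genes have no exon in the table, so their exon count is 0 by construction, and their reads are seen only in the gene reads. The same held for 17044 genes of the table, among them all 2202 miRNA genes. On gene reads, both rRNA genes passed the chi-square test between libraries, as did the 13 protein genes and 86.3% of all 11539 genes tested. mt-Rnr1 encodes the rRNA of the small mitochondrial ribosomal subunit and mt-Rnr2 that of the large one. mt-Rnr2 had 234, 185, 240, 366, 291 and 234 gene reads per 1000000 of effective library size in libraries 18 to 23, a 1.98-fold range. mt-Rnr1 had 75.2, 47.3, 67.2, 311, 91.6 and 60.03 reads on that scale, a 6.57-fold range. The value of mt-Rnr1 in library 21 (Poisson interval 284 to 339) was above all others, and the next highest was 91.6 in library 22 (85.8 to 97.7).

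The balance of the 2 rRNAs in library 21 differed from that in the other 5. mt-Rnr1 reached 0.849 reads for each read of mt-Rnr2 there, against 0.256 to 0.321 in the other libraries. Per kilobase of gene, mt-Rnr1 was above mt-Rnr2 in library 21 only, with 523 reads against 372. As a share of both rRNAs, mt-Rnr1 had 45.9% in library 21 (42.9 to 48.9, from 499 of 1087 reads), against 20.4% to 24.3%. Both rRNAs together gave 1.74, 1.38, 1.81, 2.41, 2.04 and 1.38 reads for every 100 exon reads of the protein genes. That ratio had a range of 1.75-fold, or 1.48-fold without library 21. Whether rRNA was removed during library preparation is not given in the sources used here, so these levels cannot be read as those in the cells.

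**Figure D5:**
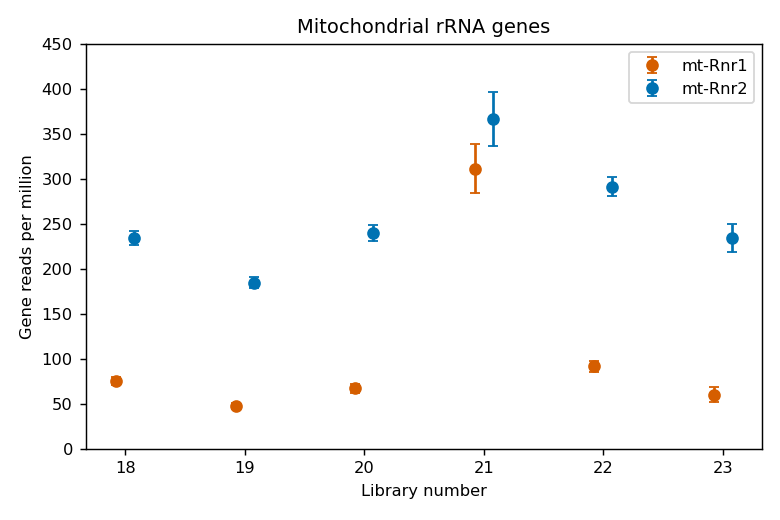
Gene reads per 1000000 of effective library size (y axis) of mt-Rnr1 and mt-Rnr2 by library number (x axis), with 95% Poisson intervals. mt-Rnr1 reaches 311 in library 21 and lies between 47.3 and 91.6 in the other libraries, below mt-Rnr2 throughout on this scale, which takes no account of gene length.

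tRNA genes, between 59 and 75 bases long, were close to undetected. They had 203 reads in all libraries, 0.0160% of the 1267597 reads on mitochondrial genes. The part of library preparation and counting in this was not tested, so these counts cannot be read as tRNA levels in the cells. Of the 22, 13 had no read in any library, among them mt-Tf, the first gene of the map, and mt-Ts1, which shares 3 bases with mt-Co1. A count of 0 allows up to 0.148 gene reads per 1000000 of effective library size in library 19 and 1.87 in library 21. The 13 without a read also held 7 of the 8 tRNA genes on the minus strand, and the eighth, mt-Tp, had 11 reads. mt-Tg, the tRNA for glycine, held 157 of the 203 reads, with 43, 12, 71, 4, 25 and 2 reads in libraries 18 to 23. Its reads were most numerous in library 20 and did not follow depth. mt-Tv had 15 reads, mt-Tl1 had 7, mt-Th had 5 and mt-Tk had 3, while mt-Tw, mt-Tm and mt-Tr had 2, 2 and 1. mt-Tg lies directly between mt-Co3 and mt-Nd3, and its sequence is shown since it held most of the tRNA reads.
mt-Tg (MT:9391-9458, plus strand): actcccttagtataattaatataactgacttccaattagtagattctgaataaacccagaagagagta

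Few reads were counted on nuclear copies of mitochondrial DNA in the stretch examined here, and copies elsewhere were not examined. The table lists 7 genes, all unprocessed pseudogenes, in the stretch of chromosome 1 that holds a known nuclear copy of mitochondrial genes, and they had 8 gene reads in all libraries. Of the exon reads of the 13 protein genes, 99.95% to 99.97% were counted as unique, against 97.2% to 97.6% over all genes. Of the 441 that were not, 440 lay on mt-Nd5. Reads that match several places could still have been left out before counting, which the files do not show.

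Nuclear genes for mitochondrial DNA maintenance, transcription and RNA processing are given beside the mitochondrial sum. Of 40 in the table, 38 were tested and 26 varied between libraries by the chi-square test, against 71.6% of all genes. Reads counted on Lars2, the mitochondrial leucyl-tRNA synthetase, made up most of the list, with 22932, 27086, 25445, 20490, 26150 and 16977 CPM in libraries 18 to 23. This count was low where the mitochondrial sum was high, in libraries 21 and 23. Its median was 24188 CPM, against at most 132 CPM for any other gene of the list. Whether all these reads came from Lars2 mRNA was not tested. The other 39 together summed to 1098, 1037, 1083, 1088, 1103 and 1336 CPM, so library 21 was level with libraries 18, 20 and 22, and library 23 was highest. Among them Mtpap, the mitochondrial poly(A) polymerase (median 132 CPM), did not pass the test (adjusted p = 0.076). Lrpprc, which stabilises mitochondrial mRNAs (median 112 CPM), Trnt1, which adds CCA to tRNAs (54.0 CPM), Hsd17b10, a subunit of mitochondrial RNase P (52.8 CPM), and Tfam, which packages the genome and starts its transcription, passed it. Tfam had 77.2 CPM in library 21 and 49.1 to 59.9 CPM elsewhere.

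The widest log2 ranges in that list were those of Fastkd5 and Rexo2. Fastkd5, which processes mitochondrial RNA ends that no tRNA marks, had 0 reads in library 21, which allows up to 3.62 CPM, and 6.65 to 14.1 CPM elsewhere. Rexo2, an exonuclease for very short RNAs, had 225 CPM in library 23 and 38.1 to 57.9 CPM elsewhere. Rexo2 alone gave much of the lead of library 23 in the sum without Lars2 above. Fastkd5 and Rexo2 both passed the test. Among 9 regulators of mitochondrial biogenesis, 7 were tested, 3 passed (Yy1, Myc and Pprc1), against 71.6% of all tested genes, and 0 of these had a range of 1.5-fold or more, against 44.8%. Their sum stayed between 456 and 482 CPM. Yy1 (median 129 CPM), Gabpa (112), Pprc1 (53.5), Nrf1 (53.3), Myc (50.3) and Gabpb1 (42.5) had the most reads. Myc and Ppargc1b, a coactivator related to PGC-1 alpha, had the widest log2 ranges among the 7, and Ppargc1b, with 12.9 to 16.9 CPM, did not pass the test (adjusted p = 0.757). Ppargc1a, which encodes PGC-1 alpha itself and was named after its values were seen, had 0.120, 0.727 and 0.554 CPM in libraries 18, 20 and 22. It had 0 reads in libraries 19, 21 and 23, which allows up to 0.282, 3.62 and 1.58 CPM.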

How the data were processed

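The RNA of sorted splenic cells was sequenced in 6 libraries. Per the labels' protocols, the NucleoSpin RNA XS Micro kit served for isolation and the QIAseq UPXome kit for library preparation. The builds, per the submitters' processing notes, were GRCm38 and mm10. The sources used here do not name the aligner, the counter, the strand setting or any use of molecular identifiers. Per the file headers, the deposited table gives read counts per gene, not normalized, for exons and for the whole gene. The deposited expression score equals the exon read count. Each gene's reads, less the deposited fraction of them outside exons, recovered the exon count within 0.5 reads in 100% of rows. The deposited ratio of unique to total exon reads gave unique reads. A further 10 columns of values per library were not used.

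No library name occurs in a label, so the planned edgeR comparison of Gpx4 cKO with WT was not run. CPM used TMM factors (0.917 to 1.05) from edgeR 4.0.16 under R 4.3.3 on 9510 genes. Levels from gene reads were scaled in the same way, to effective library sizes with TMM factors computed on gene reads. Each gene with at least 200 reads was tested by chi-square on 5 degrees of freedom, adjusted over all genes tested. The test says nothing about genotype. Intervals are at 95% and, like the limit of 3 reads for a count of 0, cover counting error only. Tested on simulated counts for 9042 genes, it found 63% of the 1.5-fold changes and 99% of the 3-fold ones. Members, lists and tests were chosen with earlier results of these data known. Genes named were all protein and rRNA members, tRNA genes by reads, and in the lists of nuclear mitochondrial genes the 6 highest by median CPM and the 2 with the widest log2 range among those tested (prior count 2). Alternatives were DESeq2 1.42.0 size factors, other totals and minimums, unique reads, per-kilobase shares and leaving out each library.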

Additional observations from a re-analysis of the deposited data

How the results depend on the processing

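The count of 13 varying protein genes was 13 under DESeq2 size factors, library totals, totals without the mitochondrial genes, minimums of 50 reads or 1 read, unique reads, and leaving out each library (13 to 13). It was 12 with a range of at least 1.5-fold required, and 15 on gene reads, an alternative chosen after seeing the data, where both rRNA genes could be tested. Over all genes, 11904 of 22065 (53.9%) were called with no minimum beyond 1 read. The 1.5-fold requirement gave 4054 of 9042 (44.8%), against 6473 (71.6%) in the main setting. That share was 86.3% on gene reads, 61.2% to 68.3% without each library, and 69.3% to 73.5% under the other settings. The fold range of the protein gene sum was 1.68 with DESeq2 size factors and 1.48 on library totals, against 1.70, and leaving out each library gave 1.31 (without library 21) to 1.70. The median share of complex I was 19.5% per kilobase and 26.5% on gene reads (chosen after seeing the data), against 27.2%, and 27.1% to 27.2% without each library. The fold range of the rRNA to protein ratio was 1.48 (without library 21) to 1.75. No paired analysis was possible because no library could be matched to a label or its replicate number. Depth limits mt-Nd6, mt-Nd3 and the tRNA genes most, above all in library 21.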
